A study of Mus musculus with 10 samples.

Results

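Matrix metalloproteinases (MMPs) and their tissue inhibitors (TIMPs) were followed in the jejunum of mice that make interleukin-23 (IL-23) in the skin. The genes were picked by symbol, as Mmp2, Mmp3, Mmp9, Mmp10, Mmp12, Mmp13, Mmp14, Timp1, Timp2 and Timp3, which are 10 of the 24062 gene symbols counted. RNA sequencing had been done on jejunum at postnatal day 5, in 5 libraries of wild-type (WT) mice and 5 of KSR23 mice, to ask whether raised cytokine levels change gene expression in the intestine. Both groups were of strain C57BL/6. WT mice were the controls, and the labels name no agent or infection for either group. KSR23 mice carry a cassette for the p19 and p40 subunits of IL-23 that is switched on by a cre recombinase under the keratin 14 promoter, which is active in keratinocytes and other squamous epithelia. The promoter that limits the model is thus one of squamous epithelia and not of the jejunal lining. The libraries of a group are described as biological replicates, although the labels do not say which animal each came from, and p-values measure the spread between these libraries.

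MMPs are zinc-dependent proteases that cut collagens, laminins, proteoglycans and other proteins outside the cell, and most are secreted as inactive proforms. TIMPs bind the active enzymes and block them. In the gut, MMPs of stromal, epithelial and infiltrating cells are known for matrix turnover in growth and wound repair and for tissue damage in inflammation, and many Mmp promoters carry sites for the AP-1 transcription factors Fos and Jun.

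Mmp3, Mmp10, Mmp12 and Mmp13 lie in 1 cluster of Mmp genes on chromosome 9, together with Mmp7. In build GRCm38 (mm10) the cluster of 10 genes spans chr9:7272514-7699585, a length of 427.1 kb. The stretches of 120 bases just upstream of annotated starts are shown for these 5 genes because all of them hold the AP-1 letters TGAGTCA (or TGACTCA, the same site read on the other strand). The sequences are from RefSeq promoters of build GRCm38.p6, all on the plus strand, 5′ to 3′, and the capitals mark the AP-1 letters.
Mmp13, chr9:7272394-7272513: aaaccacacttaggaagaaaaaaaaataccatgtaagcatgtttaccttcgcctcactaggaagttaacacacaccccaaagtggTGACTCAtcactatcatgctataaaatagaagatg
Mmp12, downstream start, chr9:7347254-7347373: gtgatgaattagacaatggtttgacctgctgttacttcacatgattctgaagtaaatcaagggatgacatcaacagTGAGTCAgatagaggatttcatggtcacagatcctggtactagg
Mmp3, chr9:7445702-7445821: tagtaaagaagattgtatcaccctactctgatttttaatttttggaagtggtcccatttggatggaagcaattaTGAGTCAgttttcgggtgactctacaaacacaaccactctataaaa
Mmp10, chr9:7502222-7502341: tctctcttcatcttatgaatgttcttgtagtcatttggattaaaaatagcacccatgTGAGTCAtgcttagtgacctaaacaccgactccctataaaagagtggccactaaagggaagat
Mmp7, chr9:7691970-7692089: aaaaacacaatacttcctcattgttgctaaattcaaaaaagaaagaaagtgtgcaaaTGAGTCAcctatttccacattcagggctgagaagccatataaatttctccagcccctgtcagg

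Of the 10 members, 8 had a promoter entry, and Mmp2 and Mmp9 had none. The AP-1 letters were searched on both strands in the 250 bases before each start and were found in 4 of these 8 members, which are the 4 members of the cluster. They began 35 bases before the start in Mmp13, 44 in Mmp12, 46 in Mmp3, 63 in Mmp10 and 63 in Mmp7. Mmp12 has an upstream start without the letters and a downstream one with them. Mmp7 likewise has another start without them. Mmp14, Timp1, Timp2 and Timp3 held none in this window, and nor did Mmp8, Mmp20 and Mmp27 of the cluster. Mmp1a and Mmp1b, which had 0 counts in all libraries, did hold the letters. Of all 32851 RefSeq promoter entries, 4.46% held the letters in their 250 upstream bases. The STAT letters TTCNNNGAA, searched likewise, were in 7.02% of all entries and in no member. A match is a match of letters and was not tested as a binding site.

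The 10 libraries held 25.5 to 32.0 M counts in genes (M is 1e+06) in WT and 31.2 to 60.9 M in KSR23, where totals were higher (exact two-sided permutation test over 252 splits, p = 0.0238). Levels are given in CPM, the counts per 1 M counts of a library after scaling of its total. On that scale 3 counts, taken as the floor, amount to 0.0427 to 0.119 CPM. The jejunal enterocyte genes Fabp2, a fatty acid-binding protein, and Lct, the lactase of suckling mice, were at 9965 ± 2800 and 616 ± 119 CPM in WT and at 4366 ± 2055 and 352 ± 116 CPM in KSR23 (SD, n = 5). Replicates 4 and 5 of each group lay between the other libraries at most genes. They were the highest or lowest of their group at 8.54% to 18.4% of 9737 genes, against 45.7% to 75.6% for replicates 1 to 3 and 40% if libraries were exchangeable. Values from replicates 1 to 3 alone are therefore given for the members, and for other genes by value or count. Whether replicates 4 and 5 are independent of replicates 1 to 3 was not tested here, and if they are not, SDs and p-values over 5 libraries are too small. Libraries also differed in how strongly levels followed the GC content of the transcripts. The slope of log2 CPM, centred on the mean over the 10 libraries, was lowest in WT replicate 1 (-0.37 per 10 percentage points) and KSR23 replicate 3 (-0.60) and highest in KSR23 replicate 1 (0.33). The groups did not differ in this slope beyond its spread (exact two-sided permutation test, p = 0.683). In whole tissue, fewer cells of a type and less RNA per cell cannot be told apart.

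All 10 members passed the filter of 5 counts in at least 1 library, and 3 of them passed the test at an adjusted p below 0.05 (edgeR likelihood ratio test, Benjamini-Hochberg adjustment over 17632 genes). Mmp3 and Mmp13 rose in KSR23 jejunum, with 9.73% of all genes tested called higher. Timp2 fell, with 8.76% of all genes called lower. The same 3 members were called by the quasi-likelihood F test, which called 15.4% of all genes, and by DESeq2, which called 21.1%. At 2 members, Mmp3 and Timp2, the libraries of WT and KSR23 did not overlap in CPM, which was so for 14.4% of all genes. With replicates 1 to 3 alone, Mmp3 was the 1 member called, against 3.36% of all genes. The median log2 fold change was -0.02 over the members and 0.03 over all genes tested, and the median size was 0.62 against 0.56.

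**Figure D1:**
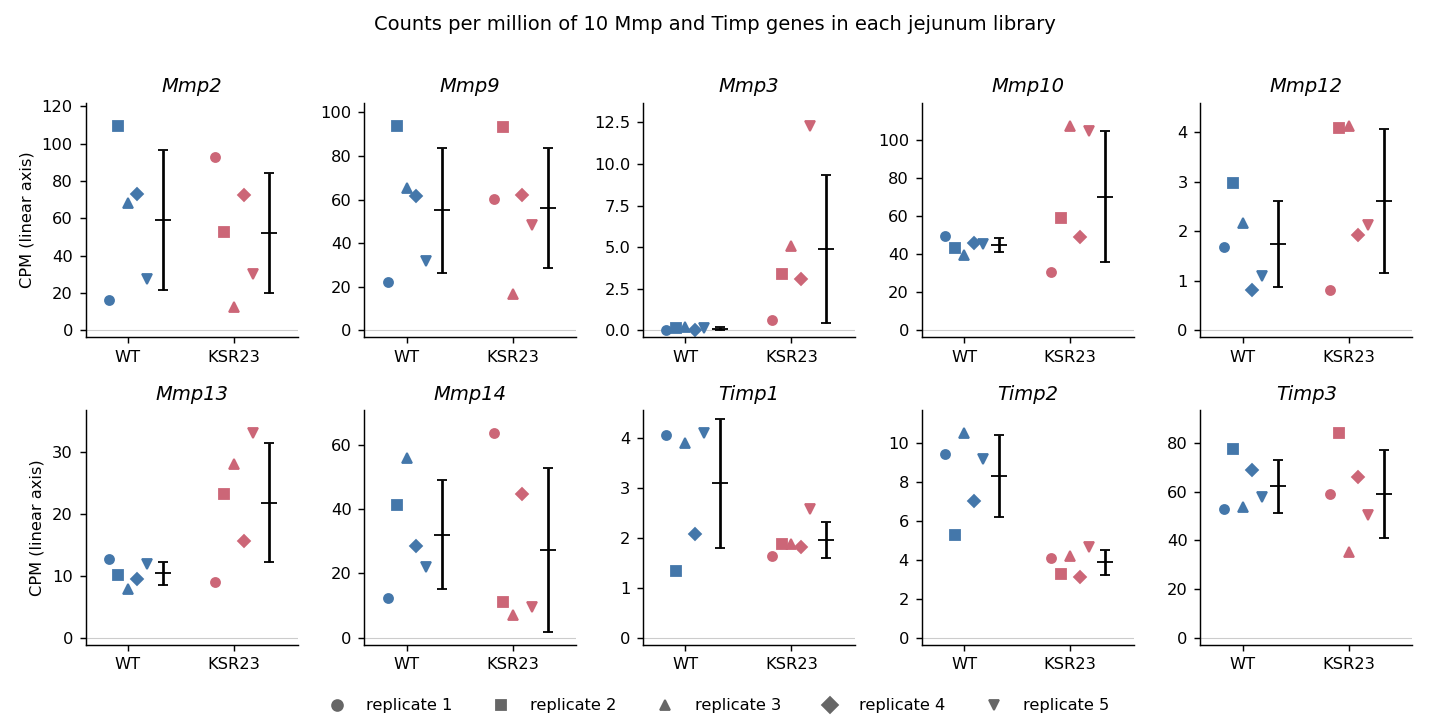
CPM (linear vertical axes) of the 10 genes in each WT (blue) and KSR23 (red) library, with a marker shape for each replicate number and the mean ± SD (n = 5) in black. All KSR23 values of Mmp3 lie above and all of Timp2 below the WT values, and the other 8 genes overlap.

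The stromelysins Mmp3 and Mmp10 cut a broad set of matrix proteins, such as proteoglycans, laminin and fibronectin, and can activate other pro-MMPs. Mmp3 (chr9:7445822-7455975, plus strand) was read 0, 3, 5, 0 and 3 times in the WT libraries and 43, 105, 128, 174 and 436 times in the KSR23 libraries, in the order of their replicate numbers, which is kept for every gene. On the CPM scale this was at most 0.183 in WT and 0.612, 3.39, 5.09, 3.08 and 12.3 in KSR23. WT libraries were at or near the floor, and all KSR23 libraries lay above them, with KSR23 replicate 1 lowest and replicate 5 highest.

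For Mmp3 the model gave a log2 fold change of 5.91 (SE 0.85) with a 95% interval of 4.25 to 7.57. Its adjusted p was 2.39e-08, or 0.00153 by the quasi-likelihood test (edgeR). The corresponding 60.2-fold rests on 11 WT counts in all, against 886 in KSR23. The log2 fold change was 5.23 without KSR23 replicate 5 and 4.10 with a covariate for Y-linked counts, and was called in both fits. With replicates 1 to 3 alone it was 4.98 (adjusted p = 0.00115), but the quasi-likelihood test then gave an adjusted p of 0.121. Of the 75-base stretches of Mmp3, 3.76% also occur in another gene, so few of its reads could be lost or shared in that way.

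Mmp10 (chr9:7502352-7510240, plus strand) had the highest mean level per kb of exon among the members in both groups. It was at 49.3, 43.2, 39.7, 46.0 and 45.4 CPM in WT and at 30.7, 59.2, 108, 49.3 and 105 CPM in KSR23. The WT libraries lay close together, whereas KSR23 replicate 1 was below all of them and replicates 2, 3 and 5 were above all of them. Its log2 fold change of 0.65 (SE 0.35, 95% interval -0.04 to 1.35) did not pass the test (adjusted p = 0.200, edgeR). Leaving out single libraries moved it in both directions, while the covariates lowered it. Without KSR23 replicate 1 it was 0.89 and passed the test (adjusted p = 0.0234), while without KSR23 replicate 3 or 5 it was 0.45 or 0.46 (adjusted p = 0.379 and 0.456, edgeR). With a covariate for Y-linked counts it was 0.13 (adjusted p = 0.933), and with one for the GC slope 0.41 (adjusted p = 0.156).

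Mmp13 (chr9:7272514-7283331, plus strand), the main interstitial collagenase of rodents, was at 12.7, 10.1, 7.89, 9.56 and 11.9 CPM in WT. In KSR23 it was at 8.95, 23.2, 28.0, 15.7 and 33.1 CPM. KSR23 replicate 1 lay inside the WT range and the other 4 lay above it. The fold change was 1.06 on the log2 scale (SE 0.37), with an adjusted p of 0.0273, or 0.0459 by the quasi-likelihood test (edgeR).

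The call of Mmp13 was lost in some fits with fewer libraries. Without WT replicate 3, 4 or 5 the log2 fold change was 0.98, 1.09 or 1.12, and without KSR23 replicate 3 or 5 it was 0.96 or 0.86 (adjusted p of 0.0519 to 0.113, edgeR). The call was also lost with replicates 1 to 3 alone (1.01, adjusted p = 0.504). Without KSR23 replicate 1 the log2 fold change was 1.31 (adjusted p = 0.000625). Counts of 4 Y-linked genes ran against Mmp13 within KSR23. They were 9035 and 4330 in KSR23 replicates 1 and 4, which had the lowest Mmp13 and Mmp3 levels of the group, while the other 3 KSR23 libraries had 1 to 9. In WT they ran the other way, with 492 in replicate 3, which had the lowest Mmp13 level of WT, 6347 in replicate 1, which had the highest, and 4361 to 5831 in the others. With their share of counts as a covariate, the log2 fold change of Mmp13 was 0.61 (adjusted p = 0.609), while Mmp3 (4.10, adjusted p = 0.000140) and Timp2 (-1.24, adjusted p = 0.0169) still passed the test in that fit, which called 10.2% of all genes. The value of Mmp3 in that fit lies below its 95% interval given above. Libraries with 1 to 9 Y-linked counts occurred in KSR23 only, so the Y-linked share and the group are partly confounded at every gene.

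Mmp12 (chr9:7344381-7369499, plus strand), the macrophage elastase, was low. It was at 0.806 to 2.97 CPM in WT (28 to 84 counts) and at 0.811 to 4.13 CPM in KSR23 (57 to 127 counts), so the groups overlapped over nearly the whole WT range. Its fold change was 0.58 on the log2 scale (SE 0.50, 95% interval -0.40 to 1.56, adjusted p = 0.472, edgeR). Of 7 macrophage markers, 3 fell in KSR23 (Cd68, C1qb and C1qc), and their summed level was 869 to 1060 CPM in WT and 621 to 820 CPM in KSR23. The part of these markers in the level of Mmp12 was not tested. Mmp12 overlaps Mmp1b on the other strand, and Mmp1b had 0 counts in every library.

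The gelatinases Mmp2 and Mmp9 cut denatured collagens and the type IV collagen of basement membranes. Mmp2 (chr8:92827291-92853420, plus strand), mainly a product of stromal cells, was at 16.4, 110, 68.4, 73.0 and 27.4 CPM in WT and at 92.6, 52.8, 12.2, 72.5 and 29.9 CPM in KSR23. Mmp9 (chr2:164940780-164955850, plus strand), mainly a product of leukocytes, was at 22.0, 94.0, 65.5, 61.5 and 31.9 CPM in WT and at 60.3, 93.5, 16.8, 62.3 and 48.2 CPM in KSR23. Both genes varied several-fold within each group and overlapped almost fully between groups. WT replicate 1 and KSR23 replicate 3 were the lowest libraries of their groups for both.

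The log2 fold change was -0.18 for Mmp2 (SE 0.57, 95% interval -1.29 to 0.93, adjusted p = 0.874) and 0.03 for Mmp9 (SE 0.47, 95% interval -0.89 to 0.95, adjusted p = 0.973, edgeR). Changes of about the size of that of Timp2 are within the first of these intervals. Of 7 neutrophil markers, 1 rose (Elane, with 0 counts in WT and 0.0910 ± 0.0863 CPM in KSR23, near the floor) and 1 fell (Retnlg), and the median log2 fold change over the 7 was 0.37. Their summed level was 19.3 to 29.5 CPM in WT and 6.61 to 14.7 CPM in KSR23, but without Retnlg the other 6 summed to 4.42 to 12.6 and 4.37 to 12.4 CPM. Their part in the level of Mmp9 was not tested.

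Mmp14 (chr14:54431612-54445364, plus strand), a membrane-bound MMP that activates pro-MMP2 together with Timp2, was at 12.4, 41.3, 56.0, 28.5 and 22.0 CPM in WT. In KSR23 it was at 63.6, 11, 7.0, 44.6 and 9.60 CPM. The KSR23 libraries split widely, with replicates 1 and 4 high and the other 3 below the lowest WT library. Its log2 fold change of -0.24 (SE 0.62, 95% interval -1.44 to 0.97) did not pass the test (adjusted p = 0.846, edgeR).

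**Figure D2:**
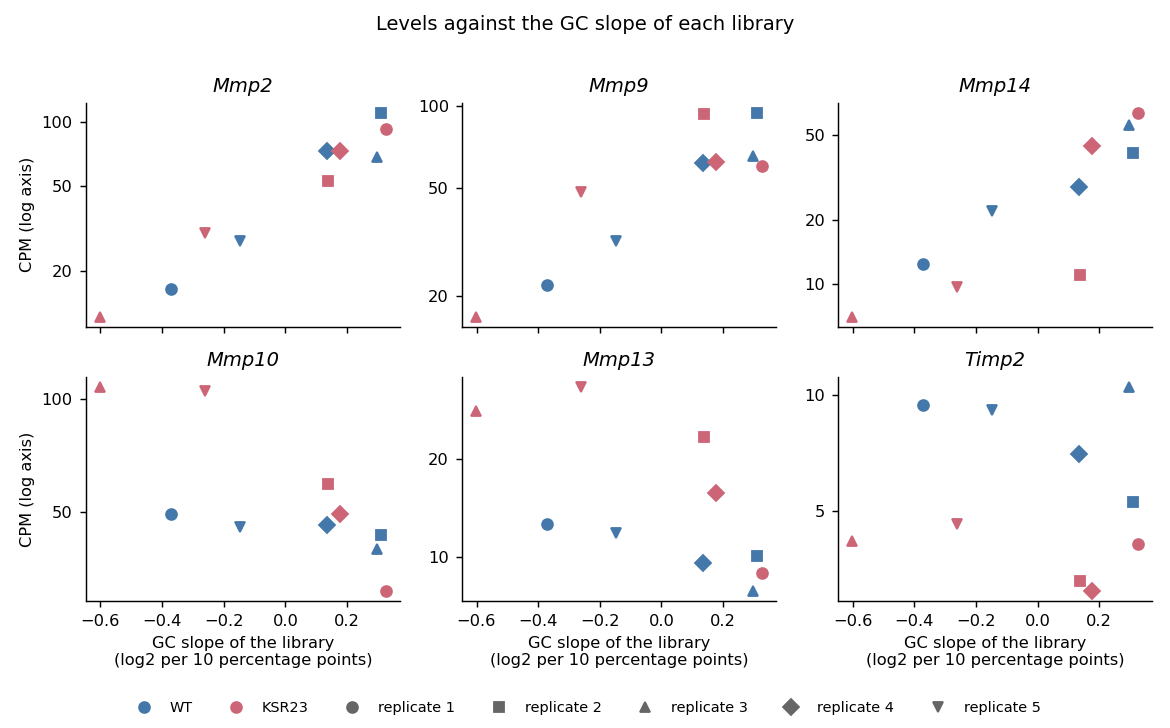
CPM (log axis) of Mmp2, Mmp9, Mmp14, Mmp10, Mmp13 and Timp2 against the GC slope of each library (log2 CPM per 10 percentage points of GC content), with WT in blue and KSR23 in red. WT replicate 1 and KSR23 replicate 3, with the lowest slopes of their groups, hold the lowest Mmp2, Mmp9 and Mmp14 levels of their groups, and Timp2 stays lower in all KSR23 libraries.

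The spread of Mmp2, Mmp9 and Mmp14 moved with the GC slope of the libraries. The exons of Mmp2, Mmp9 and Mmp14 have 55.3%, 55.2% and 54.3% GC, and all 3 genes were lowest in the libraries with the lowest slope in each group. Mmp10 and Mmp13 have 46.0% and 41.7% GC and were lowest in KSR23 replicate 1, which had the highest slope. GC content alone did not sort the members. Timp1 (52.8% GC) and Timp2 (53.7%) were lowest in WT replicate 2, which had the highest WT slope, and in KSR23 replicates 1 and 4, respectively. Timp3 (46.8%) was lowest in WT replicate 1 and KSR23 replicate 3. With the slope as a covariate, an alternative chosen after seeing the data, the SE of the log2 fold change fell to 0.20 for Mmp2, 0.24 for Mmp9 and 0.32 for Mmp14. Their log2 fold changes were then 0.09, 0.28 and -0.21, and none passed the test (lowest adjusted p = 0.380, edgeR). The SE fell for every other member too, such as from 0.35 to 0.22 for Mmp10 and from 0.37 to 0.25 for Mmp13. Mmp3 (5.57, adjusted p = 3.73e-09), Mmp13 (0.89, adjusted p = 0.00226) and Timp2 (-1.13, adjusted p = 2.65e-05) were called in that fit, which called 37.5% of all genes.

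Among the inhibitors, Timp2 (chr11:118301069-118355740, minus strand), which blocks many MMPs and also takes part in the activation of pro-MMP2, was the member that fell. It was at 9.44, 5.27, 10.5, 7.03 and 9.16 CPM in WT and at 4.10, 3.29, 4.17, 3.10 and 4.63 CPM in KSR23. All KSR23 libraries lay below all WT libraries, and WT replicate 2 came nearest to them.

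Timp2 had a log2 fold change of -1.10 (SE 0.30, 95% interval -1.70 to -0.51), a 2.15-fold lower level, with an adjusted p of 0.00354 and of 0.0117 by the quasi-likelihood test (edgeR). It passed the test whichever library was left out (highest adjusted p = 0.0306). With replicates 1 to 3 alone the size was nearly the same, -1.09, but did not pass it (adjusted p = 0.376). Markers of stromal and immune cells are given beside this fall. Of 8 fibroblast markers 1 fell (Dcn), and their summed level overlapped, at 1399 to 1918 CPM in WT and 1258 to 1861 CPM in KSR23. The macrophage sum given above was lower in all KSR23 libraries, and the sum of 7 epithelial markers was higher in all of them (2290 to 3755 CPM against 4776 to 6109 CPM). Of these 7, 2 were called higher (Cdh1 and Cdh17), 1 of them by the quasi-likelihood test too. The 6 jejunal enterocyte markers went the other way, with a median log2 fold change of -0.60. The part of these markers in the level of Timp2 was not tested.

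Timp1 (chrX:20870166-20874735, plus strand), an inhibitor that many cells make in response to cytokines, was at 4.06, 1.34, 3.89, 2.07 and 4.09 CPM in WT. In KSR23 it was at 1.64, 1.87, 1.87, 1.81 and 2.57 CPM. WT replicates 1, 3 and 5 lay above all KSR23 libraries, WT replicate 4 lay inside the KSR23 range and WT replicate 2 below it. A log2 fold change of -0.66 resulted (SE 0.37, 95% interval -1.40 to 0.07, adjusted p = 0.223, edgeR).

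Timp3 (chr10:86300372-86349506, plus strand), an inhibitor that stays bound to the matrix and also blocks ADAM proteases, was at 52.9 to 77.5 CPM in WT (median 57.9) and 35.3 to 84.1 CPM in KSR23 (median 59.1). The WT range lay inside the KSR23 range. The log2 fold change was -0.08 (SE 0.29, 95% interval -0.65 to 0.50, adjusted p = 0.898, edgeR). Timp3 lies within Syn3, which is on the other strand, and 20.6% of its 75-base stretches also occur in another gene, so its level is less certain than those of the other members.

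**Figure D3:**
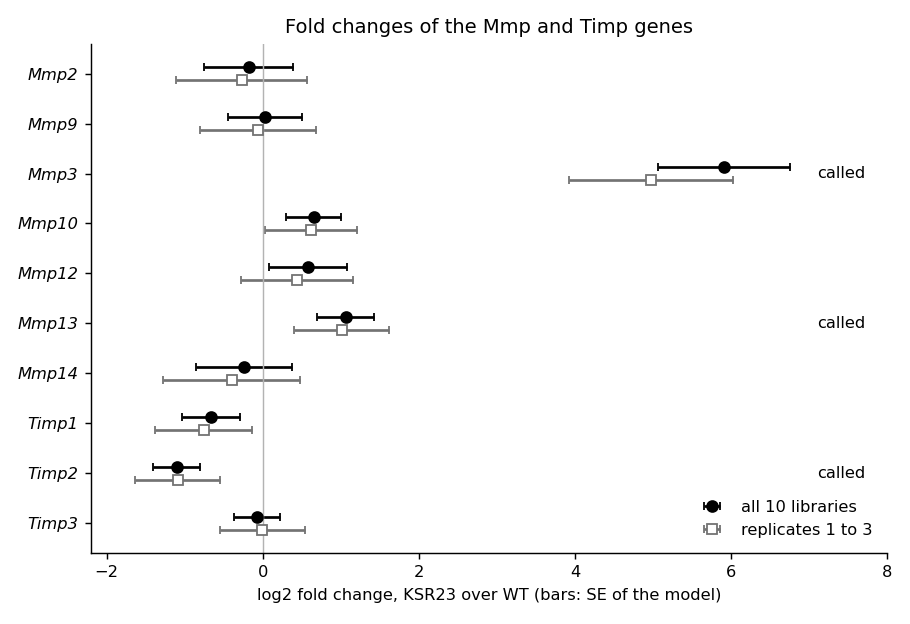
Log2 fold changes of the 10 genes (KSR23 over WT, bars ± SE of the edgeR model) from all 10 libraries (filled circles) and from replicates 1 to 3 alone (open squares). Mmp3 stands at 5.91 and 4.98, Mmp13 at 1.06 and 1.01 and Timp2 at -1.10 and -1.09, and the word "called" marks genes that passed the test with all libraries.

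Levels of different genes were compared as CPM per kb of annotated exon (mean ± SD, n = 5). In WT the order was Mmp10 (26.0 ± 2.08), Mmp2 (17.5 ± 11.2), Mmp9 (15.5 ± 8.11), Timp3 (7.63 ± 1.32), Mmp14 (5.37 ± 2.86), Mmp13 (3.90 ± 0.709), Timp1 (3.48 ± 1.45), Timp2 (2.13 ± 0.540), Mmp12 (0.24 ± 0.12) and Mmp3 (0.0447 ± 0.0441). The mean ± SD ranges of neighbours in this order overlapped down to Timp2, while those of Timp2, Mmp12 and Mmp3 were apart. The exon length of Mmp12 includes transcripts with retained introns, which lowers its value per kb. In KSR23 Mmp10 was again first (40.9 ± 20.0), and Mmp3 (2.72 ± 2.47) moved from the last place to the seventh, above Timp1 (2.20 ± 0.404), Timp2 (0.990 ± 0.165) and Mmp12 (0.361 ± 0.201). That rank rested on KSR23 replicate 5. Mmp3 exceeded Timp1 in 2 of 5 KSR23 libraries, and without replicate 5 its mean was 1.69, against 2.02 for Timp1. The ratio of Mmp3 to Mmp10, 2 genes of similar GC content, was 0 to 0.00442 per kb in WT and 0.0191 to 0.112 in KSR23.

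The summed level of the 7 MMPs per kb was 46.8 to 95.4 in WT and 76.8 to 105 in KSR23. The summed level of the 3 TIMPs was 12.4 to 14.1 in WT and 7.51 to 13.3 in KSR23. The ratio of the sums was 5.24 ± 1.74 in WT and 8.71 ± 2.01 in KSR23 (SD, n = 5), with ranges of 3.47 to 7.70 and 6.74 to 11.4 that overlapped. These sums are given as a description. Mmp10 made up 23.2% to 72.8% of the MMP sum, and most of the rest came from the gelatinases. Timp3 made up 48.2% to 77.8% of the TIMP sum, but that sum did not simply follow it. WT replicate 2 had the highest Timp3 level of WT and the lowest TIMP sum of WT (12.4). Mean levels per kb in WT and KSR23 were 7.63 and 7.24 for Timp3, 3.48 and 2.20 for Timp1, and 2.13 and 0.990 for Timp2.

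The other genes of the Mmp cluster were measured in the same fit. Mmp7, or matrilysin, a small epithelial MMP that in mouse intestine is known to process Paneth cell defensins, rose from 10.7 ± 1.99 to 78.7 ± 18.9 CPM (SD, n = 5). This was a log2 fold change of 2.88 with an SE of 0.29 (adjusted p = 9.22e-19). The groups did not overlap, and the gene was called with replicates 1 to 3 alone too (adjusted p = 6.64e-05, edgeR). Mmp7 overlaps AV064505 on the other strand, and whether reads were counted by strand is not known. Mmp8, the neutrophil collagenase, had at most 32 counts in a library and a log2 fold change of 1.88 that did not pass the test (adjusted p = 0.142). Of the 10 genes of the cluster 8 were tested, since Mmp1a and Mmp1b had 0 counts in all libraries. Of these 8, 3 rose (the members Mmp3 and Mmp13, and Mmp7), with 9.73% of all genes tested called higher. The nearest tested genes outside the cluster did not pass the test, with log2 fold changes of -0.36 for Dcun1d5 (adjusted p = 0.704), 0.20 for Dync2h1 (adjusted p = 0.784), 0.33 for Tmem123 (adjusted p = 0.783) and 0.36 for Birc2 (adjusted p = 0.459). Ddi1, with at most 7 counts in a library, had -3.62 (SE 1.82) and did not pass it either (adjusted p = 0.0536, edgeR).

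**Figure D4:**
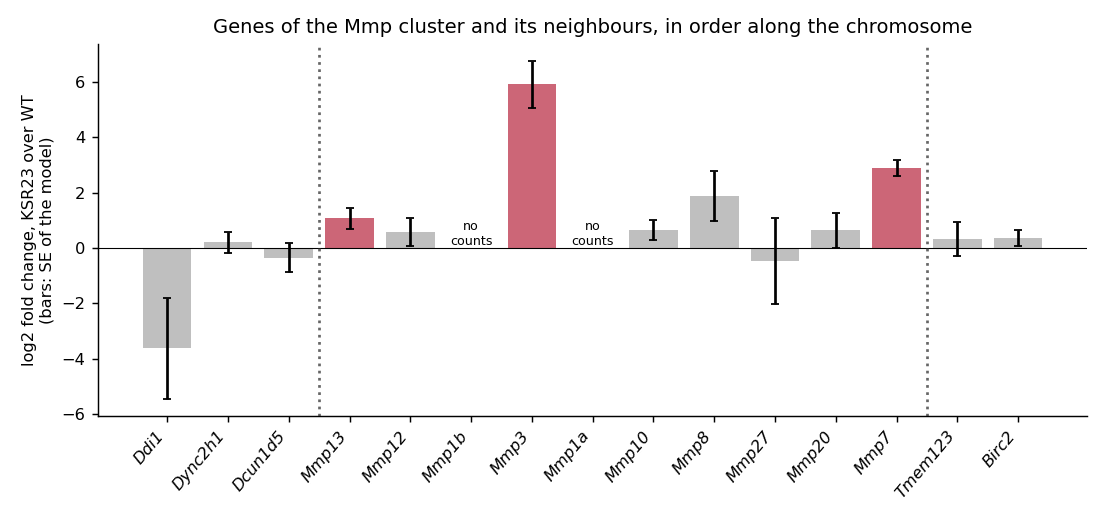
Log2 fold changes (KSR23 over WT, bars ± SE of the edgeR model) of the 10 genes of the Mmp cluster, between the dotted lines, and of their nearest neighbours, in order along the chromosome with equal spacing. Red columns are genes called higher (Mmp13, 1.06, Mmp3, 5.91, and Mmp7, 2.88), grey columns did not pass the test, and Ddi1 had at most 7 counts in a library.

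Beyond the members, 21 called genes are named from 5 lists, which were chosen with earlier results of these data known. Over all genes tested, 9.73% were called higher and 8.76% lower. With replicates 1 to 3 alone all 21 kept their direction, but 5 passed the test (Mmp7, Mep1b, Fos, Socs3 and Il22) and 16 did not. Of these 5, the quasi-likelihood test on the same replicates called Mmp7 and Il22 (adjusted p = 0.0294 and 0.0109) but not Mep1b, Fos or Socs3 (0.183, 0.163 and 0.0854). The 17 other Mmp and Timp genes were followed by a list, of which 15 could be tested. Of these, 2 rose, Mmp7 and Mmp19, and 13 did not pass the test. Mmp19, a secreted MMP of many tissues, went from 0.877 ± 0.360 to 1.98 ± 0.277 CPM (log2 fold change 1.17, adjusted p = 0.0164, edgeR). With replicates 1 to 3 alone it was 0.75 (adjusted p = 0.645). Of the 75-base stretches of Mmp19, 23.2% also occur in another gene, and it overlaps Gm47093 and Tmem198b on the other strand, so its level is uncertain. The median log2 fold change of the list was 0.27.

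Of 23 genes for activators of MMPs, other protease inhibitors and binding partners, 4 rose and 3 fell, 5 of these 7 by the quasi-likelihood test too. Plaur, the receptor of urokinase, went from 5.35 ± 0.870 to 13.4 ± 6.48 CPM (log2 fold change 1.33, adjusted p = 0.00307, and 0.363 with replicates 1 to 3). Lcn2, a secreted lipocalin, went from 4.53 ± 0.724 to 12.4 ± 4.62 CPM (1.45, adjusted p = 0.000792, and 0.272 with replicates 1 to 3). Klk1, tissue kallikrein, had a log2 fold change of 1.11 (adjusted p = 0.0108), and St14, the membrane serine protease matriptase, one of 1.59 (adjusted p = 0.0385, not called by the quasi-likelihood test, adjusted p = 0.0883). The 3 genes that fell, named here after their values were seen, were Tfpi2, an inhibitor of serine proteases (-1.08, adjusted p = 0.00480), Cd63, a membrane protein that binds TIMP1 (-0.91, adjusted p = 0.00943), and Pcsk6, a proprotein convertase (-0.89, adjusted p = 0.0469, and 0.0588 by the quasi-likelihood test). The other 16 did not pass the test, and the median over the list was 0.39.

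Of 18 ADAM, ADAMTS and meprin genes, which encode related metalloproteinases, 5 rose and 1 fell, 5 of them by the quasi-likelihood test too. Mep1b, the brush border meprin beta, rose from 343 ± 87.9 to 1045 ± 384 CPM (log2 fold change 1.61, adjusted p = 1.31e-05, and 0.0399 with replicates 1 to 3). Adam8, a leukocyte ADAM, rose from 1.47 ± 0.578 to 3.76 ± 0.721 CPM (1.35, adjusted p = 0.00170, and 0.305 with replicates 1 to 3), and Adam9 had a log2 fold change of 1.23 (adjusted p = 0.00609). Adamts18 fell by 2.24 on the log2 scale from a low level of 0.851 ± 0.257 CPM (adjusted p = 0.0207, and 0.0857 by the quasi-likelihood test). The other 12 did not pass the test.

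Of 30 genes for matrix proteins that MMPs cut, 2 rose and 2 fell, all 4 by the quasi-likelihood test too. Sparc, a collagen-binding matricellular protein, fell by 1.06 on the log2 scale, from 1172 ± 230.2 to 562 ± 94.0 CPM (adjusted p = 0.000460, and 0.365 with replicates 1 to 3). Dcn, the small proteoglycan decorin, fell by 1.10, from 576 ± 132 to 269 ± 81.2 CPM (adjusted p = 0.00315, and 0.408 with replicates 1 to 3). Lama1, a laminin chain of epithelial basement membranes, rose by 1.42 (adjusted p = 0.00290), and Col18a1, a basement membrane collagen, by 0.94 (adjusted p = 0.0110). The other 26 matrix genes did not pass the test.

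Of 23 tested genes of AP-1, STAT3 and the cytokines known to induce Mmp genes, 7 rose and 16 did not pass the test. Of these 7, 6 were called by the quasi-likelihood test too, and 9.73% of all genes tested were called higher. The median log2 fold change of the list was 0.92. Fos, a subunit of AP-1, rose from 16.2 ± 5.94 to 127 ± 84.4 CPM (log2 fold change 2.97, adjusted p = 3.91e-08). Socs3, a feedback inhibitor that STAT3 induces, rose from 3.39 ± 2.0 to 69.9 ± 61.1 CPM (4.36, adjusted p = 1.54e-08). Tnf, the cytokine tumor necrosis factor, rose from 0.319 ± 0.191 to 1.44 ± 0.253 CPM (2.18, adjusted p = 0.000276, and 0.0646 with replicates 1 to 3). Il22, the cytokine that IL-23 is known to induce in lymphocytes, was read at most once per library in WT and 137 to 329 times per library in KSR23. Whether these genes act on the Mmp genes was not tested.

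Markers of further cell types are given by their summed CPM. The summed levels overlapped for 6 smooth muscle markers (1612 to 3666 CPM in WT, 1681 to 2269 in KSR23, Acta2 called lower), 5 endothelial markers (98.3 to 130 and 96.4 to 109 CPM, Emcn and Cdh5 called lower) and 4 mesothelial markers (13.5 to 53.2 and 21.9 to 34.6 CPM). The 6 jejunal enterocyte markers, of which Fabp2 and Lct fell, had sums of 86700 to 182900 CPM in WT and 50890 to 96690 CPM in KSR23. Keratinocyte markers, of which Krt10 and Ivl fell, summed to 10.3 to 20.7 CPM in WT and 5.6 to 9.15 CPM in KSR23. Markers of the exocrine pancreas were lower in KSR23 at all 5 tested genes, with sums of 74.1 to 111 and 0.248 to 0.790 CPM. Of the 20 markers called, 6 were not called by the quasi-likelihood test (C1qc, Elane, Acta2, Cdh1, Lct and Cpa1). With replicates 1 to 3 alone 5 were called (Retnlg, Ivl, Ctrb1, Prss2 and Sycn) and 15 were not. No marker was at 0 in all libraries, and Adgre1 and Ly6g were not used here. The part of these cell types in the levels of the members was not tested.

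Genes with the pattern most like that of each called member were found by the mean absolute difference of log2 CPM, centred on the mean, over the 10 libraries and 12889 candidates. For Mmp3, whose own mean deviation was 2.45, they were Gm4788 (0.69), Mgat4c (0.73) and Hemt1 (0.75). For Mmp13, with a mean deviation of 0.60, they were Cyp2j6 (0.11), Gpr39 (0.12) and Nolc1 (0.13). For Timp2, with a mean deviation of 0.55, they were Hmgn3 (0.06), Kctd2 (0.12) and the nuclear noncoding RNA Malat1 (0.13). The libraries share their depth and GC slope across genes, so these are descriptions of these 10 libraries.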

How the data were processed

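Jejunum RNA of 5 WT and 5 KSR23 libraries had been primed with oligo-dT (100 pg of total RNA), amplified by PCR without molecular identifiers and read as single-end 75-base reads. The authors mapped reads to mm10 with TopHat2 2.1.0 and deposited raw counts per gene from HTSeq 0.6.1p1, with no normalization. Reads with more than 1 alignment entered no gene, and the strand setting is not given in the sources used here. Intervals and floors cover counting error or the spread of these libraries only.

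Counts were scaled with TMM factors, genes below 5 counts in all libraries were removed, and group was fitted as the only term in edgeR 4.0.16 (R 4.3.3) with the likelihood ratio test, the study's test, after the scripts were tested on simulated data. Quasi-likelihood tests and DESeq2 1.42.0 were alternatives, with others listed in the closing section. CPM use TMM-scaled totals. Gene models, exon length and GC content came from GENCODE M21. The members, gene lists and the naming rule (in each list at most 4 called genes, by size of fold change, with Tfpi2, Cd63 and Pcsk6 added after their values were seen) were chosen with earlier results of these data known. Groups came from the titles.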

Additional observations from a re-analysis of the deposited data

Results flagged for a closer look

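In WT, Lct, one of the enterocyte markers, stood apart in replicate 3. Its log2 CPM there was 8.70, against 9.24 in the nearest of the other WT libraries, a gap of 0.722 of the whole WT range. The scan covered 94 groups of 5 libraries over 49 named genes, in which chance alone flags about 1 in 20. No member was flagged.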

How the results depend on the processing

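Over 21 alternatives, 178 of 209 log2 fold changes of members kept their direction and their side of the threshold, and the cause of the other changes was not tested. The count over all genes, 3261, was 579 with replicates 1 to 3 alone, 1797 with a covariate for Y-linked counts, and 2370 to 3802 when 1 library was left out. In fits chosen after seeing the data it was 140 by the quasi-likelihood test on replicates 1 to 3 and 6620 with the GC slope as a covariate. Members called, 3 in the main comparison, were 1 with replicates 1 to 3 (2 at an unadjusted p under 0.05), 0 by the quasi-likelihood test on them (2 at an unadjusted p under 0.05, Mmp3 and Timp2), and 2 to 4 without 1 library. With 5 counts required in every library Mmp3 was not tested.

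Mmp13 did not pass the test with replicates 1 to 3 (1.01 by either test) or the Y-linked share (0.61), and ranged from 0.86 to 1.31 without 1 library. Without 1 library Mmp10 ranged from 0.45 to 0.89 and was called without KSR23 replicate 1, but it was 0.13 with the Y-linked share and 0.41 with the GC slope. Mmp3 (4.98) by the quasi-likelihood test and Timp2 (-1.09) by both tests missed the threshold with replicates 1 to 3. With the Y-linked share Mmp3 was 4.10 and still called. Without 1 library Mmp3 and Timp2 were 5.23 to 6.47 and -1.18 to -0.99. Among members that were never called, signs turned for Mmp2 (0.019 with the Y-linked share, 0.088 with the GC slope, -0.44 to 0.21 without 1 library), Mmp9 (-0.056 with replicates 1 to 3 by either test, -0.059 with the Y-linked share, -0.18 to 0.36), Mmp12 (-0.34 with the Y-linked share), Mmp14 (-0.76 to 0.062) and Timp3 (0.032 with the Y-linked share, -0.18 to 0.064).

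Same-numbered libraries did not deviate together (correlations of -0.55, 0.25, -0.46, 0.11 and 0.22), so the numbers were not taken to pair the samples. With a replicate block, 2202 genes and 2 members were called, and Mmp13 (0.96, adjusted p = 0.155) was not. Depth limits Mmp3 in WT, where 11 counts set its level.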
